A study of Mus musculus with 6 samples.

Results

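Surface and niche markers of bulge stem cells (SCs) are the proteins by which these cells are recognised, stained and sorted, together with the secreted proteins they place around themselves. The 8 genes described here, out of 43274 in the deposited table, were taken by name: the surface sialomucin gene Cd34, the receptor genes Lgr4, Lgr5 and Lgr6, the surface glycoprotein genes Cd200 and Plet1, the matrix gene Postn and the secreted factor gene Angptl7. All 8 were found in the table through their Ensembl identifiers, and all 8 passed the filter for low genes, a mean of 10 or more normalized counts. The bulge is the part of the permanent hair follicle in which quiescent SCs reside between hair cycles. CD34 marks the SCs of the mouse bulge, Lgr5 the lower bulge and the hair germ beneath it, and Lgr6 and Plet1 the isthmus above it. The Lgr proteins bind R-spondins and thereby raise the response of a cell to Wnt ligands, periostin is a matricellular protein, and CD200 is a ligand that restrains myeloid cells carrying its receptor.

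RNA was sequenced from bulge SCs of control and ILK-K5 mice at postnatal day 21, with 3 libraries per genotype. Control mice carried 1 floxed allele of Ilk, the gene of integrin-linked kinase, and the K5-Cre transgene (labelled ILK +/-), and ILK-K5 mice carried 2 floxed Ilk alleles and the same transgene (labelled ILK -/-). The keratin 5 promoter drives Cre in basal keratinocytes of the epidermis and the hair follicle, so that Ilk is deleted there from development onwards, and the control is itself heterozygous for the deletion in the same cells. In both genotypes cells were sorted from the epidermis as CD34+ and α6 integrin high, so that CD34 is at once the protein used for the gate and one of the genes measured. The labels do not say whether the libraries of a genotype came from separate mice, and p-values measure only the spread between these libraries.

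Reads counted on genes numbered between 8228019 and 11969072 per library, and 1 read corresponded to between 0.726 and 1.52 normalized counts. Mitochondrial genes took 23.6%, 27.6% and 11.5% of these reads in control libraries 1 to 3. In ILK-K5 libraries 1 to 3 they took 24.2%, 14.4% and 16.9%, and the part of this spread in the differences below was not tested. The count of Ilk could not check the genotypes, since 89.7% of its exon sequence is shared with Rrp8 or Taf10, and between 10.6 and 38.5 normalized counts of Ilk were found per control library and between 14.8 and 30.9 per ILK-K5 library. The label of a keratinocyte population was met by its defining genes: the normalized count of Krt5, the keratin of basal keratinocytes, lay between 21489 and 64812 in every library, and that of the bulge keratin gene Krt15 between 10084 and 97406. Of 8 genes of basal keratinocytes none was called different between the genotypes, and their median log2 fold change was 0.00. This median stands between opposite values, with 4 genes above 0 and 4 below, from −0.60 for Lamb3 to 0.91 for Krt14. In the limma fit 2 of the 8 had an unadjusted p under 0.05. The ILK-K5 libraries also held RNA of immune cells, and 10 of 10 macrophage genes and 5 of 5 general leukocyte genes were called higher. The summed normalized count of the macrophage genes was 91.2 to 123 in control and 9571 to 13206 in ILK-K5 libraries, and that of the general leukocyte genes was 39.6 to 107 and 2877 to 3734. Of all reads, 0.00107% to 0.00265% in control and 0.128% to 0.195% in ILK-K5 libraries fell on these 15 genes. The part of immune cells in the differences below was not tested.

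Promoter sequences are shown for the 3 markers whose ILK-K5 libraries all lay below the control libraries. These are Cd34 (plus strand of chromosome 1, 194938819 to 194961279), Angptl7 (minus strand of chromosome 4, 148495183 to 148500460) and Lgr6 (minus strand of chromosome 1, 134983301 to 135105276), in GRCm38. Each sequence is 240 bases of the RefSeq promoter (GRCm38.p6), read 5′ to 3′ on the strand of the gene and ending 11 bases before its start in RefSeq. They lie at chr1:194938571-194938810 for Cd34, chr4:148500473-148500712 for Angptl7 and chr1:135105287-135105526 for Lgr6. Capitals mark the Smad box, CAGAC or its reverse complement GTCTG, a short sequence bound by Smad proteins in Bmp and Tgf-β signalling.
Cd34: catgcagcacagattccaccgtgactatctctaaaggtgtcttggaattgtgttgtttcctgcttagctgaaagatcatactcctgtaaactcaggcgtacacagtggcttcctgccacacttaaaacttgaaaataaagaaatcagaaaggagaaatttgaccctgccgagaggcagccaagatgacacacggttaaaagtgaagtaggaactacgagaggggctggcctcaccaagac
Angptl7: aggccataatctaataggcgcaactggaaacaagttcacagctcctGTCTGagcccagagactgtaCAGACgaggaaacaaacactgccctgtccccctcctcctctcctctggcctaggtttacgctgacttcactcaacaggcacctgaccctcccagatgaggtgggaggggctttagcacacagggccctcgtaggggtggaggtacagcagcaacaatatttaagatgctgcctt
Lgr6: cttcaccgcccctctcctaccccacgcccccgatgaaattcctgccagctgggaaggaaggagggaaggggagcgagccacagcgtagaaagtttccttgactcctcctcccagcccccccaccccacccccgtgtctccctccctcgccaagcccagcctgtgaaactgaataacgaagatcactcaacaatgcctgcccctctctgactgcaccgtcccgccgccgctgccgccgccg
The window of Cd34 was the poorest in G and C of the 3, with 45.8%, against 54.2% for Angptl7 and 64.6% for Lgr6. The Angptl7 window held the Smad box 2 times, once on each strand, and the windows of Cd34 and Lgr6 did not hold it. A Smad box is common, and 40.9% of 32851 promoter windows of the same length hold at least 1 on either strand.

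A RefSeq window was matched for 7 of the 8 markers, with 2 windows for Postn. Each was searched on both strands for 3 further motifs. The TCF/LEF core CTTTGA, bound by the factors that carry Wnt signals, and the RUNX core TGTGGT occurred in none of the 8 windows, against 13.5% and 13.6% of all promoter windows. The AP-1 motif TGANTCA, held by 6.6% of all windows, occurred once, in Plet1, and 1 Smad box each lay in Cd200 and in 1 of the windows of Postn. The motifs were chosen after the expression values had been seen, and a match describes letters only.

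Cd34 was the marker with the largest difference between the genotypes. Control libraries 1 to 3 held 2009, 947 and 1960 normalized counts of Cd34, whereas ILK-K5 libraries 1 to 3 held 296, 560 and 434. The lowest control library held more Cd34 than the highest ILK-K5 library, although control library 2 stood well below the other controls. The mean of the control libraries was 1639 ± 599 and that of the ILK-K5 libraries 430 ± 132 (SD, n = 3 each), and the fitted level was 3.72-fold lower in ILK-K5. On the scale of log2 of the normalized count plus 1, Cd34 fell by 1.90 (SE 0.37, 95% confidence interval −2.73 to −1.06, adjusted p = 0.0239 with limma and Benjamini-Hochberg adjustment over 16368 genes). In bulk RNA, fewer cells of a type and less RNA per cell cannot be told apart. Both genotypes had been gated on CD34 protein, and Itga6, which encodes the other protein of the gate, had a log2 fold change of 0.37 (SE 0.25, adjusted p = 0.699).

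Of all genes tested, 0.599% were called lower in ILK-K5 and 2.93% higher. Among the 8 markers, 1 was called lower (Cd34) and 0 were called higher. The call of Cd34 was lost with the FPKM table (adjusted p = 0.0509) and with replicates 2 and 3 only (log2 fold change −1.47, adjusted p = 0.137). It was also lost without control library 1 (adjusted p = 0.0572), control library 3 (0.0591), ILK-K5 library 1 (0.0877) or ILK-K5 library 3 (0.0798), while the log2 fold change stayed between −2.25 and −1.65 over all 6 fits that left out a library.

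The ILK-K5 libraries lay entirely below the control libraries for 3 markers, Cd34, Angptl7 and Lgr6, and entirely above them for 0. Over all genes tested, 6.95% were separated in the lower and 10.9% in the higher direction. At an unadjusted p under 0.05 there were 3 markers, all lower, and 2011 genes of all tested. The median log2 fold change of the markers was −0.40, against 0.01 over all genes tested, and 7 of the 8 were below 0.

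**Figure D1:**
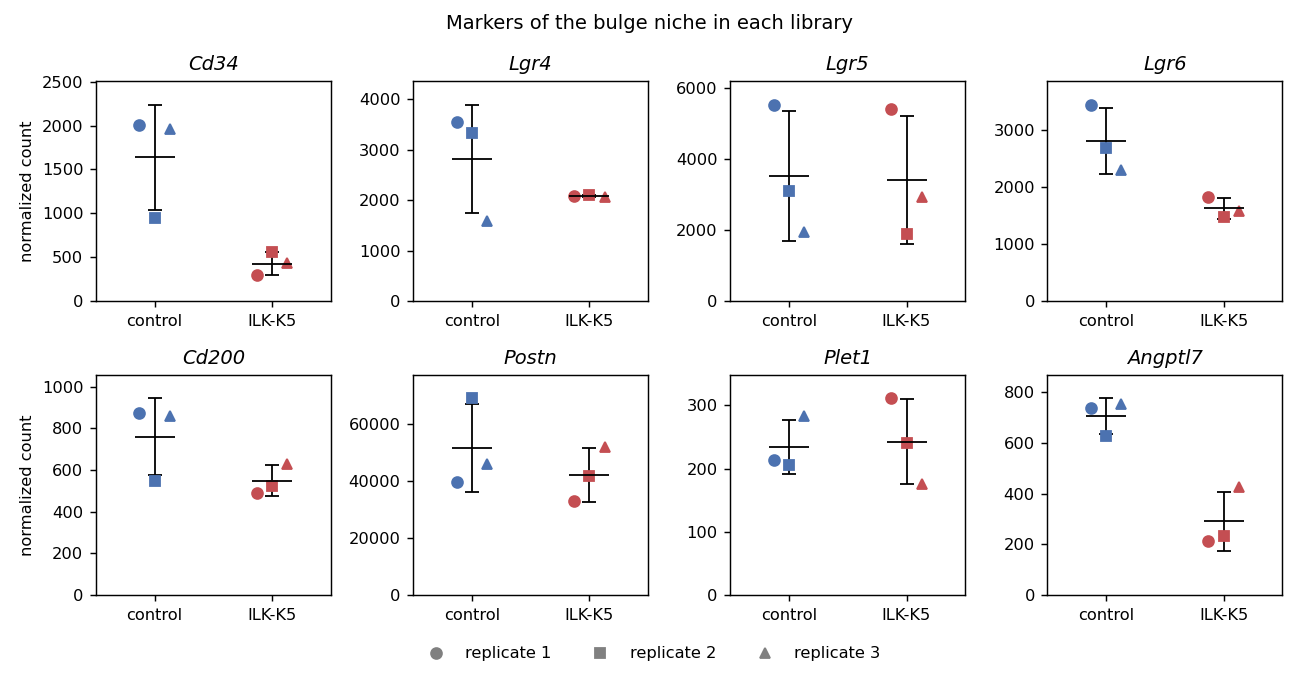
Normalized counts (vertical axes, linear and starting at 0) of the 8 markers in each control and ILK-K5 library, with a point per library whose shape marks the replicate, and the mean as a horizontal line with a bar of ± 1 SD (n = 3). The genotypes do not overlap for Cd34, Angptl7 and Lgr6, and in Lgr5 replicate 1 is the highest library of both genotypes.

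Angptl7 encodes a secreted glycoprotein of the angiopoietin-like family. In libraries 1 to 3 it had 736, 625 and 754 normalized counts in control, and 214, 232 and 425 in ILK-K5. The control libraries lay close together, and ILK-K5 library 3 stood above the other ILK-K5 libraries without reaching them. The means were 705 ± 69.9 and 290 ± 117 (SD, n = 3 each), with a log2 fold change of −1.34 (SE 0.32, 95% confidence interval −2.06 to −0.62). The adjusted p of 0.0575 with limma missed the threshold of 0.05. DESeq2 on the recovered reads, which called 1.71% of its 16339 tested genes lower, gave an adjusted p of 0.0104 for Angptl7 and of 9.8e-05 for Cd34. Of the 6 limma fits that left out a library, only that without ILK-K5 library 3 called Angptl7 (log2 fold change −1.65, adjusted p = 0.0465). The adjusted p rose to 0.249 without ILK-K5 library 2, and was 0.2215 with replicates 2 and 3 only. Angptl7 was called with the replicate number as a block (adjusted p = 0.0103) and with a term for replicate 1 (adjusted p = 0.0192).

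The 3 Lgr genes encode membrane receptors that share the R-spondin ligands. For Lgr6, the receptor gene of the isthmus, control libraries 1 to 3 held 3439, 2678 and 2293 normalized counts, and ILK-K5 libraries 1 to 3 held 1828, 1466 and 1584. The genotypes did not overlap, with means of 2803 ± 583 and 1626 ± 185 (SD, n = 3 each). The log2 fold change was −0.77 (SE 0.26, 95% confidence interval −1.36 to −0.18, adjusted p = 0.211 with limma), which did not pass the test over all genes.

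Lgr4, the most broadly expressed of these receptors, is encoded on chromosome 2 (plus strand, 109917647 to 110014257). Normalized counts of Lgr4 in libraries 1 to 3 were 3540, 3327 and 1586 for control, and 2088, 2107 and 2059 for ILK-K5. The control libraries fell on both sides of the ILK-K5 libraries. The coefficient of variation was 38.0% in control and 1.16% in ILK-K5, and the log2 fold change was −0.35 (SE 0.34, 95% confidence interval −1.11 to 0.41, adjusted p = 0.817 with limma).

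Lgr5 (minus strand of chromosome 10, 115450311 to 115587780) varied more between the libraries of a genotype than between the genotypes. Libraries 1 to 3 of control SCs held 5528, 3090 and 1937 normalized counts, and those of ILK-K5 SCs 5414, 1893 and 2937. The library numbered 1 was the highest in both genotypes, and the other libraries overlapped. The means were 3518 ± 1834 and 3415 ± 1808 (SD, n = 3 each), with coefficients of variation of 52.1% and 53.0%. The log2 fold change was −0.05 (SE 0.47), and its 95% confidence interval of −1.11 to 1.02 covers a change of about 2-fold in either direction. Its sign turned with quantile normalization (0.094), when control library 1 (0.35) or ILK-K5 library 2 (0.31) was left out.

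Because the 3 receptors bind the same ligands, their levels per length were also expressed as shares of their summed FPKM. The summed FPKM was 168, 129 and 81.3 in control and 118, 77.6 and 88.9 in ILK-K5 libraries 1 to 3. Lgr6 made up 30.6%, 31.1% and 42.2% of this sum in control and 23.2%, 28.3% and 26.7% in ILK-K5 libraries. These shares did not overlap, and their means differed by −8.56 percentage points, for which the two-sided exact permutation test gave p = 0.1, the smallest that 3 against 3 libraries allow. Lgr5 made up 32.8%, 23.9% and 23.8% in control and 45.9%, 24.4% and 33.0% in ILK-K5 libraries, with overlap (difference 7.58 points, exact permutation p = 0.2). Lgr4 took 38.5% ± 5.73 in control and 39.5% ± 8.26 in ILK-K5 (SD, n = 3 each; exact permutation p = 0.9). After Benjamini-Hochberg adjustment over the 3 shares the values were 0.3 for Lgr6, 0.3 for Lgr5 and 0.9 for Lgr4. The difference of the Lgr6 share was −4.77 points without control library 3, and that of the Lgr5 share was 1.84 points without ILK-K5 library 1 and 12.6 points without ILK-K5 library 2.

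**Figure D2:**
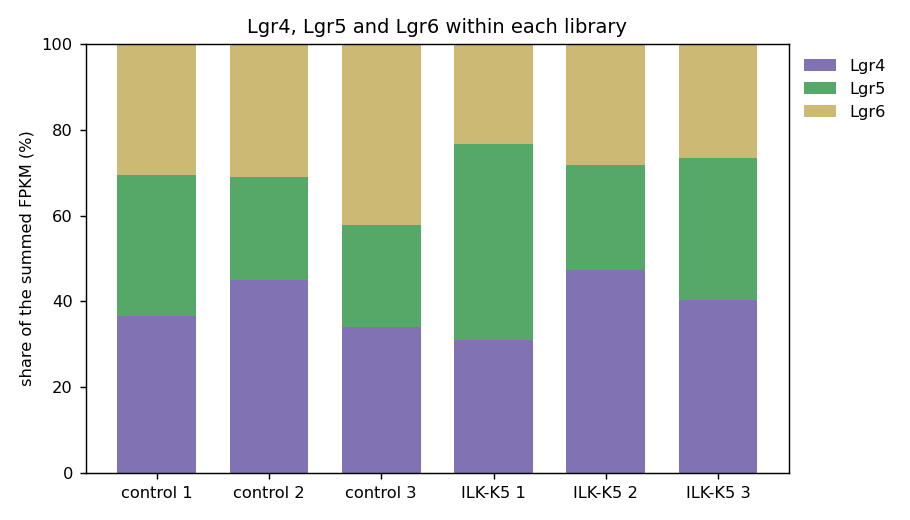
Share of the summed FPKM of Lgr4, Lgr5 and Lgr6 (percent, vertical axis) taken by each receptor gene, as stacked bars for each of the 6 libraries. Lgr6 takes its smallest shares in the ILK-K5 libraries, between 23.2% and 28.3%, and Lgr5 its largest in ILK-K5 library 1, with 45.9%.

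Of the other genes on the path from R-spondins to the Wnt receptors, 5 of 8 passed the filter, and limma called none in either direction, with 0 at an unadjusted p under 0.05. Rspo1, which encodes an R-spondin, had normalized counts of 0, 33.5 and 28.3 in control and 62.6, 57.1 and 42.9 in ILK-K5 libraries (log2 fold change 2.44, SE 1.21, adjusted p = 0.496). The ILK-K5 libraries were all higher, and control library 1 was at 0. Lrp5, a Wnt co-receptor gene, had a log2 fold change of −0.40 (SE 0.27, adjusted p = 0.690), and the median over the 5 genes was −0.09.

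CD200 is a surface glycoprotein of the immunoglobulin family. The normalized counts of Cd200 (minus strand of chromosome 16, 45382135 to 45409053) were 873, 547 and 858 in control and 492, 525 and 631 in ILK-K5 libraries 1 to 3. Control library 2 lay among the ILK-K5 libraries, while control libraries 1 and 3 lay above all of them. The log2 fold change was −0.44 (SE 0.28, 95% confidence interval −1.08 to 0.19, adjusted p = 0.662 with limma).

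Of 4 genes for CD200 receptors and related proteins, 2 passed the filter and neither was called by limma, although both had an unadjusted p under 0.05, and the remaining 2 held at most 14 reads in any library. Cd200r1, the inhibitory receptor of myeloid cells, had normalized counts of 9.65, 0 and 0.726 in control and 55.8, 54.8 and 23.4 in ILK-K5 libraries (log2 fold change 4.01, SE 0.98, adjusted p = 0.0624). The ILK-K5 libraries, in which it was higher, also held more RNA of macrophage genes. Within ILK-K5, the summed macrophage counts of libraries 1 to 3 were 9571, 13206 and 9932, and Cd200r1 rested on only 49, 71 and 24 reads. The part of macrophages in the Cd200r1 difference was not tested. Cd200r3, a related receptor gene, had normalized counts of 496, 348 and 305 in control and 174, 139 and 145 in ILK-K5 libraries (log2 fold change −1.30, SE 0.30, adjusted p = 0.0526). Both genes were separated between the genotypes, in opposite directions, and neither passed the test.

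Plet1 encodes a surface glycoprotein of the isthmus and was the marker with the lowest normalized counts in control SCs. In libraries 1 to 3 it had 213, 205 and 284 normalized counts in control, and 311, 241 and 176 in ILK-K5, from at least 135 reads per library. The highest and the lowest library both belonged to ILK-K5. The log2 fold change was 0.03 (SE 0.32, 95% confidence interval −0.69 to 0.75, adjusted p = 0.988 with limma), and its sign turned with quantile normalization (−0.057) and with replicates 2 and 3 only (−0.23). Plet1 (plus strand of chromosome 9, 50494525 to 50505482) shares 13.4% of its exon bases with the antisense gene Plet1os, whose normalized counts were between 10.6 and 31.2. For Cd34 the shared part with Gm16897 was 2.0%, and the other 6 markers shared no exon bases. Gm16897 had normalized counts of 40.5, 62.3 and 66.0 in control and 7.97, 21.6 and 21.4 in ILK-K5 libraries. Its ILK-K5 libraries thus all lay lower, as for Cd34. Whether counting used strand is not given in the sources used here, so that reads in the shared parts cannot be assigned with certainty.

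Postn was by far the most abundant marker. Control libraries 1 to 3 reached 39884, 69072 and 46204 normalized counts, and ILK-K5 libraries 1 to 3 reached 32994, 41658 and 51861. The genotypes overlapped, with control library 2 at the top and ILK-K5 library 1 at the bottom. The log2 fold change was −0.28 (SE 0.42, 95% confidence interval −1.22 to 0.66, adjusted p = 0.899 with limma), and it was 0.074 with quantile normalization. Periostin is also made by fibroblasts, so its level was set beside those of fibroblast collagens on the FPKM scale, which takes account of gene length. The mean FPKM of Postn was 677 in control and 552 in ILK-K5, that of Col1a1 was 6.69 and 12.1, and that of Col3a1 was 0.485 and 7.29. The part of fibroblasts in the level of Postn was not tested.

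Of 9 genes for proteins that bind, process or resemble periostin, 8 passed the filter, 1 was called higher and 0 were called lower, with a median log2 fold change of 0.96. Of all genes tested, 2.93% were called higher. All 8 had a log2 fold change above 0, as had 8265 of all 16368 genes tested. An unadjusted p under 0.05 with limma was found for 4 of them, and for 2011 of all genes tested. Fn1, which encodes the matrix protein fibronectin, had normalized counts of 130, 111 and 231 in control and 3299, 2746 and 1889 in ILK-K5 libraries (log2 fold change 4.10, SE 0.35, adjusted p = 0.000368). The genotypes were far apart for Fn1, which macrophages and fibroblasts also express. The largest differences among the others were those of Ccdc80, a secreted matrix protein (log2 fold change 2.36, SE 1.15, adjusted p = 0.484), and of Itgb5, an integrin chain that binds periostin (1.06, SE 0.40, adjusted p = 0.273). Ccdc80 was near the floor, with 0, 1 and 20 reads in control and 5, 36 and 27 in ILK-K5 libraries, and the genotypes overlapped.

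**Figure D3:**
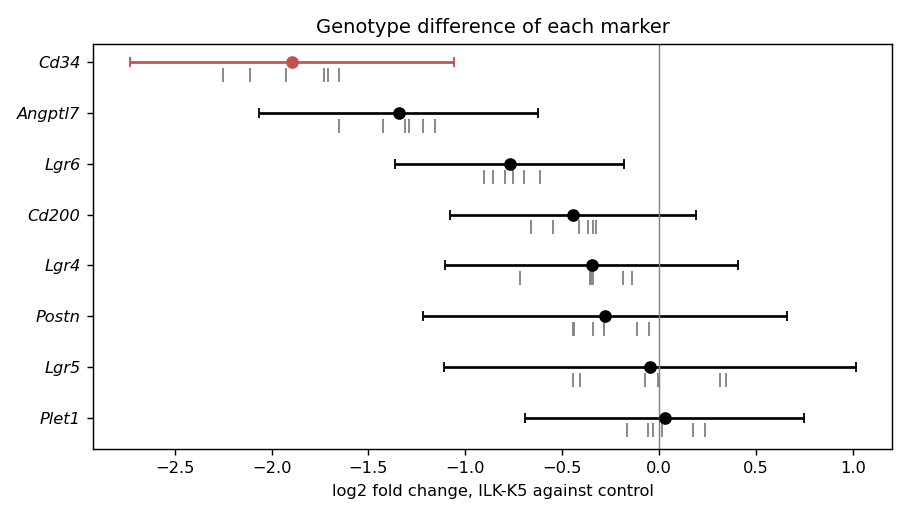
Log2 fold change of each marker (ILK-K5 minus control, horizontal axis, on log2 of the normalized count plus 1) as a point with its 95% confidence interval from limma, in red where called, and grey ticks for the values without each library in turn. The intervals of Cd34, Angptl7 and Lgr6 lie below 0, and of these, Cd34 alone passed the adjusted test.

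Levels of different markers were compared per length, as mean FPKM ± SD over 3 libraries. In control SCs the order from the top was Postn (677 ± 201), Lgr4 (49.1 ± 18.7), Lgr6 (42.0 ± 8.73), Lgr5 (35.2 ± 18.3), Angptl7 (33.5 ± 3.32), Cd200 (23.5 ± 5.68), Cd34 (23.1 ± 8.43) and Plet1 (12.3 ± 2.27). Only the steps from Postn to Lgr4 and from Angptl7 to Cd200 separated neighbours whose libraries did not overlap. In ILK-K5 SCs the order was Postn (552 ± 124), Lgr4 (36.3 ± 0.42), Lgr5 (34.1 ± 18.1), Lgr6 (24.3 ± 2.77), Cd200 (17.0 ± 2.25), Angptl7 (13.8 ± 5.55), Plet1 (12.8 ± 3.54) and Cd34 (6.05 ± 1.86). Here the steps from Postn to Lgr4, from Lgr6 to Cd200 and from Plet1 to Cd34 were free of overlap. Cd34 thus stood last in ILK-K5, and its mean FPKM was at percentile 62.3 of all genes tested, against percentile 87.7 in control. Postn was at percentile 99.6 in control SCs.

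**Figure D4:**
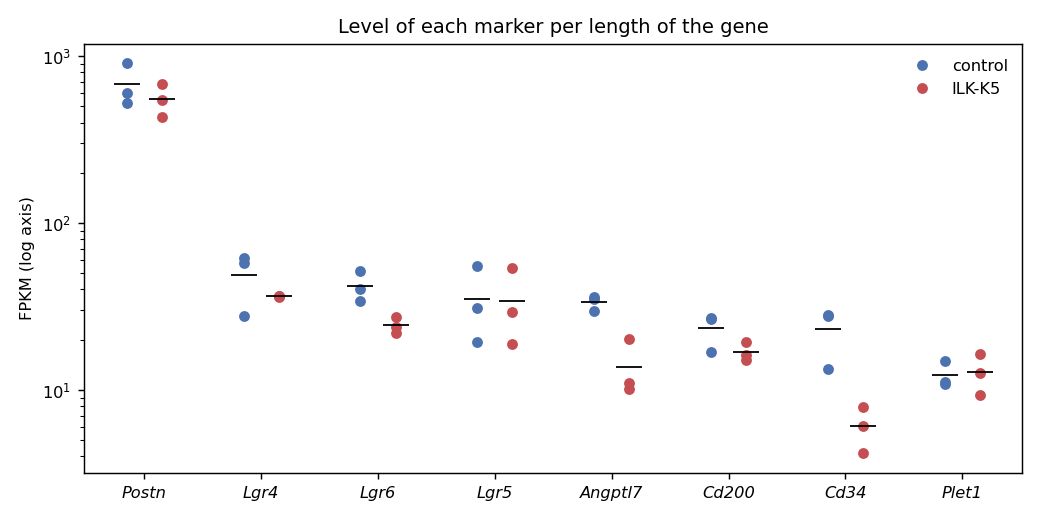
Level per length (FPKM, vertical log axis) of the 8 markers in each library of control (blue) and ILK-K5 (red) SCs, with lines at the means. Postn lies more than 10 times above the other markers in mean FPKM, and Cd34 is the lowest marker in ILK-K5 but not in control SCs.

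The genes whose profile over the 6 libraries was most like that of 3 markers were found by Pearson's r on log2 of the normalized count plus 1, among 10960 genes with a mean of at least 50. For Cd34 they were Dlx3 (r = 0.994), a homeobox gene of hair and epidermal differentiation, Shld2 (0.988) and Wdr78 (0.980). For Lgr6 they were Klf3 (0.997), a zinc finger transcription factor gene, Nt5e (0.996), the gene of the surface enzyme CD73, and Nrcam (0.995), a cell adhesion gene. For Lgr5 they were Sh2d2a (0.998), Zfp446 (0.997) and Tfpi (0.994), the gene of an inhibitor of tissue factor. An r of at least 0.95 was reached by 27 genes for Cd34, 89 for Lgr6 and 155 for Lgr5. With 6 libraries and so many genes searched, such values are a description only, and the libraries of a genotype share their genotype.

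Lists of further markers of the bulge, the hair germ and the isthmus were set beside the 8 genes. Of 14 other bulge markers, all tested, 0 were called higher and 1 was called lower, with a median log2 fold change of −0.36. The gene called was Npnt, which encodes the matrix protein nephronectin that bulge SCs deposit at the attachment site of the arrector pili muscle. Its normalized counts were 7194, 5080 and 4211 in control and 1770, 1714 and 2701 in ILK-K5 libraries (log2 fold change −1.41, SE 0.31, adjusted p = 0.0413). The genotypes did not overlap, but the call was kept only without control library 3 (adjusted p = 0.0337) among the 6 fits that left out a library, and the adjusted p rose to 0.207 without ILK-K5 library 2. It was also lost with a pseudocount of 0.1 (0.0533), the FPKM table (0.0731), edgeR (0.0579), replicates 2 and 3 only (0.202) and keratinocyte scaling (0.0741). Krt15, a keratin gene of the bulge, had a log2 fold change of −1.16 (SE 0.62, adjusted p = 0.552), and Foxc1, a transcription factor gene of SC quiescence, one of −1.07 (SE 0.59, adjusted p = 0.577).

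Of 6 other hair germ markers, all tested, 1 was called higher and 0 lower, with a median log2 fold change of 0.41. Runx1, a transcription factor gene of hair follicle activation that leukocytes also express, had normalized counts of 1184, 1308 and 1332 in control and 4125, 2406 and 3403 in ILK-K5 libraries (log2 fold change 1.34, SE 0.28, adjusted p = 0.0299). All ILK-K5 libraries were higher, and the call was lost without control library 1, control library 2, ILK-K5 library 1 or ILK-K5 library 3, with an adjusted p of up to 0.153. It was also lost with the FPKM table (0.0524), replicates 2 and 3 only (0.1298) and keratinocyte scaling (0.136). Lef1, which encodes a factor that carries Wnt signals, had a log2 fold change of 0.70 (SE 0.32, adjusted p = 0.422), and Cdh3, the P-cadherin gene, one of 0.50 (SE 0.44, adjusted p = 0.788).

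Of 6 other markers of the isthmus and junctional zone, all tested, limma called 0 in either direction. An unadjusted p under 0.05 was found for 3. All 6 had a log2 fold change above 0, with a median of 1.27, as had 8265 of all 16368 genes tested. For Cst6 the value was 0.76 (SE 1.42), although its mean was 142 normalized counts in control and 137 in ILK-K5 libraries. Krt79, a keratin gene of the upper follicle, had normalized counts of 77.2, 116 and 525 in control and 973, 852 and 809 in ILK-K5 libraries (log2 fold change 2.38, SE 0.61, adjusted p = 0.0740). The genotypes did not overlap for Krt79, although control library 3 stood well above the other controls. Gata6, a transcription factor gene of the junctional zone and sebaceous duct, had a log2 fold change of 1.92 (SE 0.81, adjusted p = 0.360). Its reads in libraries 1 to 3 were only 3, 2 and 23 in control and 34, 25 and 18 in ILK-K5. Plet1 and Lgr6, which mark the same region, had log2 fold changes of 0.03 and −0.77. The median of the list was 2.25 without control library 3.

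The remaining gene families held few measured members. Of 6 other angiopoietin-like genes, 3 passed the filter and none was called, with log2 fold changes of 1.20 for Angptl4 (SE 0.66, adjusted p = 0.573) and 0.07 for Angptl2 (SE 0.31, adjusted p = 0.968), against −1.34 for Angptl7. Angptl4 encodes an inhibitor of lipoprotein lipase. Of 5 genes related to CD34 or encoding selectins, which bind CD34 on blood vessels, only Podxl2 passed the filter (log2 fold change −0.44, SE 0.78, adjusted p = 0.916).

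**Figure D5:**
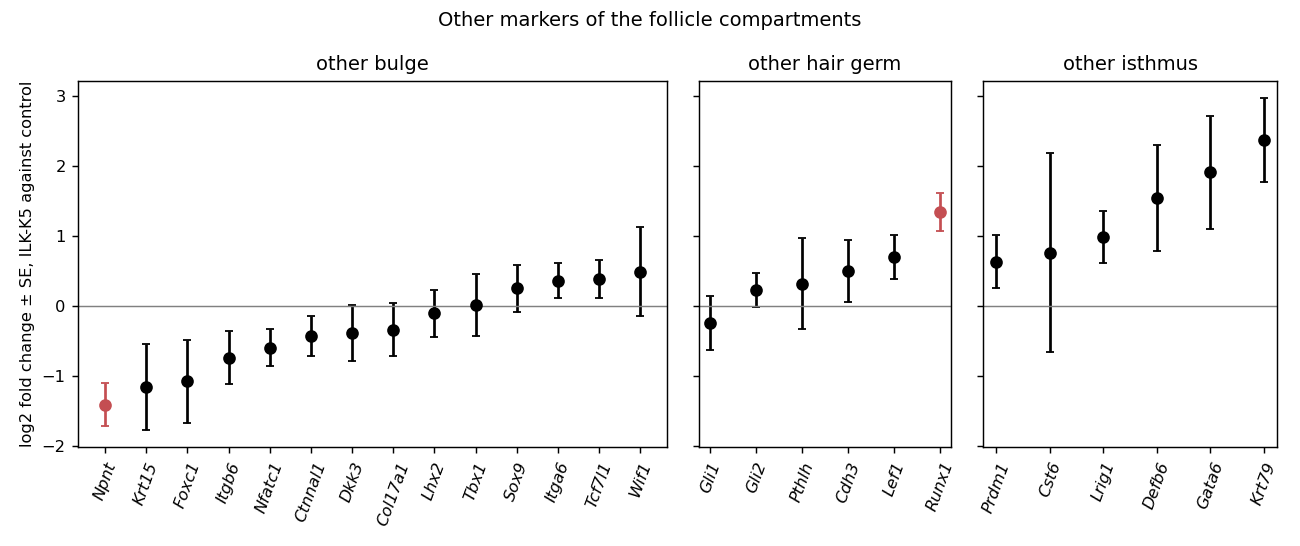
Log2 fold change (ILK-K5 minus control, limma, vertical axis) of the other bulge, hair germ and isthmus markers, with a point per gene, bars of ± 1 SE and called genes in red. The called genes are Npnt (−1.41) and Runx1 (1.34). All 6 isthmus and junctional zone genes lie above 0, and the bar of Cst6 reaches below it.

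CD34 is not restricted to the bulge, since endothelial cells, mast cells and dermal fibroblasts also carry it, and markers of these cells were compared for that reason. The summed normalized count of 7 endothelial genes was 121 to 267 in control and 136 to 143 in ILK-K5 libraries, and none of the 3 that passed the filter was called (median log2 fold change −0.21). Among them Tek, an angiopoietin receptor gene, had normalized counts of 54.0, 41.1 and 22.5 in control and 5.69, 11.6 and 8.77 in ILK-K5 libraries (log2 fold change −2.02, SE 0.61, adjusted p = 0.144), so that its ILK-K5 libraries all lay lower, as for Cd34. Pecam1 had a log2 fold change of 0.68 (SE 0.53, adjusted p = 0.760) and Vwf one of −0.21 (SE 0.43, adjusted p = 0.930). Of 5 mast cell genes only Kit passed the filter and was not called (log2 fold change 3.81, SE 0.91, adjusted p = 0.0578), Cpa3 and Tpsb2 were at 0 in all 6 libraries, and the summed count was 0.965 to 13.7 in control and 20.1 to 22.4 in ILK-K5. In ILK-K5 this sum was that of Kit alone, while Ms4a2, a chain of the mast cell IgE receptor, had 0.965, 10.6 and 2.18 normalized counts in control and 0 in every ILK-K5 library. The summed count of 6 fibroblast genes was 703 to 779 in control and 1532 to 2493 in ILK-K5, and of the 4 that passed the filter Col3a1 was called higher (log2 fold change 4.13, SE 0.59, adjusted p = 0.00447, median of the list 0.85). Lum, another fibroblast gene, was at 0 in all control libraries and had at most 17 reads in an ILK-K5 library. The sums of the fibroblast genes were thus higher in the ILK-K5 libraries, those of the endothelial genes overlapped between the genotypes, and the mast cell genes did not move together. The part of these cells in the difference of Cd34 was not tested.

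Genes of the dermal papilla and of melanocytes, which lie next to the follicle epithelium or within it, were measured as well. For the dermal papilla the summed normalized count was 78.4 to 117 in control and 50.1 to 159 in ILK-K5, 2 of 6 genes passed the filter, none was called, and Sox2 was at 0 in all libraries. Of the 2 genes tested, Hhip had a log2 fold change of −2.40 (SE 0.75, adjusted p = 0.160, all ILK-K5 libraries lower) and Crabp1 one of 1.42 (SE 0.67, adjusted p = 0.455, with overlap), so that the median of −0.49 stands between opposite values. For melanocytes the sums were 680 to 1308 and 269 to 478, and of 5 genes tested Mitf alone was called, lower (log2 fold change −1.84, SE 0.31, adjusted p = 0.0118, median of the list 0.20). Mitf, a transcription factor gene of melanocytes, took most of this sum. The pigment gene Tyrp1 went the other way, with normalized counts of 2.89, 0 and 5.08 in control and 34.2, 11.6 and 48.7 in ILK-K5 libraries (log2 fold change 3.29, SE 0.94, adjusted p = 0.119), and it was not called.

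The fit was also repeated with each library scaled to the 8 basal keratinocyte genes, an alternative added after the data were seen. This scaling shifts each library by its own amount, so that the log2 fold changes of all genes move alike but their spreads do not. It moved the median log2 fold change of all genes tested from 0.01 to −0.10. Cd34 then stood at −2.01 (adjusted p = 0.0139), Angptl7 at −1.45 (adjusted p = 0.0460) and Lgr6 at −0.88 (adjusted p = 0.407). Since any lower gene moves further down by it, the scaling does not bear on the part of RNA of other cells in these differences, which was not tested.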

How the data were processed

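RNA of sorted bulge SCs was measured in 3 control and 3 ILK-K5 libraries. According to the study's methods, sorted cells went into TRIzol LS, cDNA was amplified with the Ovation RNA-Seq System V2, and libraries were made with Nextera XT. The submitters' processing notes name TopHat2 2.0.14, Bowtie2 2.2.4, DESeq2 1.6.3 and the build GRCm38. The program that counted reads per gene is not given in the sources used here.

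The authors deposited a signal table (normalized counts), in which the reads of each gene are scaled by 1 size factor per library, and a table of FPKM. All values (100%, tolerance 0.02) of the signal table were whole multiples of the value of 1 read, so that the reads could be recovered. Within a gene, the deposited FPKM and the normalized counts had the same ratio in every library. Tables of the authors' own comparison hold means, log2 fold changes, standard errors, test statistics and p-values, and were not used here. The depth, between 8228019 and 11969072 reads on genes per library, gave each marker at least 135 reads in every library.

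Genotypes were compared with limma 3.58.1 (lmFit, eBayes with a trend, R 4.3.3) on log2(normalized count + 1) for 16368 genes (mean of 10 or more), with Benjamini-Hochberg adjustment over all of them, and genes were called at an adjusted p of at most 0.05. Fitted fold changes are on this scale and understate changes of low genes. Tests are two-sided. The recovered reads were tested with edgeR 4.0.16 (422 genes called higher, 87 lower) and DESeq2 1.42.0 (772 and 280), against 479 and 98 with limma. Gene symbols (42107 of 43274 genes, 97.3%), coordinates and exon overlaps are from GENCODE M21 for GRCm38, and promoters from RefSeq. Scripts were tested on simulated data. Python 3.11.15, pandas 2.3.3 and matplotlib 3.10.9 were used for tables and plots.

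The markers and the gene lists were chosen with earlier results of these data known. Named are all markers and, from each list of partner or follicle genes, every gene called and the 2 tested genes with the largest absolute log2 fold change that were not called. An item of the lists is not reported here. Lists of other cell types are given by counts, medians and sums. Single genes of other cell types, Itga6, Plet1os and Gm16897 were chosen after their values were seen. As alternatives, the fits were repeated with a pseudocount of 0.1 or 5, no filter, a mean of at least 50, quantile normalization, TMM factors, the FPKM table (pseudocount 0.1), edgeR, DESeq2, the replicate number as a block, a term for replicate 1 (the descriptions of replicates 2 and 3 carry similar identifiers, that of replicate 1 another), replicates 2 and 3 only, each library left out, and, added after seeing the data, scaling to basal keratinocyte genes.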

Additional observations from a re-analysis of the deposited data

How the results depend on the processing

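Lgr4, Lgr6 and Cd200 kept their direction and stayed uncalled under all 13 alternatives and all 6 fits without a library. Cd34 kept its direction under all of them and was called under 11 of the 13. It was not called with the FPKM table (log2 fold change −1.88, adjusted p = 0.0509). That table differs from the normalized counts by 1 factor per gene and was fitted with another pseudocount. Cd34 was also not called with replicates 2 and 3 only (−1.47, adjusted p = 0.137, fewer libraries). Its log2 fold change lay between −2.25 and −1.65 without a library. Angptl7 passed the threshold with DESeq2 (−1.31, adjusted p = 0.0104), the replicate block (−1.34, adjusted p = 0.0103), a term for replicate 1 (−1.34, adjusted p = 0.0192) and scaling to basal keratinocyte genes (−1.45, adjusted p = 0.0460), and lay between −1.65 and −1.16 without a library. The number of markers called lower was thus 0 with the FPKM table and with replicates 2 and 3 only, 2 under those 4 settings, and 0 to 1 without a library. The sign turned for Lgr5 with quantile normalization (0.094; −0.45 to 0.35 without a library), for Postn with quantile normalization (0.074), and for Plet1 with quantile normalization (−0.057), replicates 2 and 3 only (−0.23) and keratinocyte scaling (−0.08; −0.17 to 0.24 without a library). Without a library, the difference in the Lgr4 share was between −2.92 and 5.31 percentage points, that in the Lgr5 share between 1.84 and 12.6 and that in the Lgr6 share between −10.6 and −4.77. Keratinocyte scaling moves the log2 fold changes of all genes alike, though not their spreads. Apart from this, the factor and pseudocount of the FPKM fit, and the smaller fits, the cause of these changes was not tested. The median log2 fold change of all genes, 0.01, moved to −0.10 with keratinocyte scaling and with no filter, and to −0.08 with quantile normalization.

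The number of all genes called, 577, was 1052 with DESeq2, 1117 with the replicate block and 1132 with a term for replicate 1. It was between 254 and 656 in the fits that left out a library, namely 254, 308 and 286 without libraries 2, 1 and 3 of ILK-K5, and 345 without control library 2. Same-numbered libraries of both genotypes share an identifier in their descriptions, and controls were littermates of ILK-deficient mice, but the labels do not say what the identifier marks. Deviations of same-numbered libraries from their genotype means correlated with r = 0.529, 0.0198 and 0.307, and not every library correlated best with its own number. The block changed the call of no marker other than Angptl7. Every marker had at least 135 reads in each library, and how far depth limits its precision was not tested.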
